A study of Mus musculus with 4 samples.

Results

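Transcripts of the Myc, Max and Mxd network were measured in primary mouse T-helper 17 (Th17) cells, the CD4 T cells that secrete interleukin-17. The network was taken as 10 genes named by symbol (Myc, Mycn, Mycl, Max, Mxd1, Mxd3, Mxd4, Mxi1, Mlx and Mga), each mapped to its Ensembl identifier, out of 50600 genes counted. Mnt, Mlxip and Mlxipl, which encode further partners of Max or Mlx, were read beside them. The cells came from strain C57BL/6NJ and had been differentiated from CD4 T cells. The labels give neither the age nor the sex of the mice, no gene was altered, and the stimulus and cytokines used were not analysed here. There was 1 group of 4 RNA-seq libraries, biological replicates 1 to 4, and no second condition, so genes were compared with each other within each library and across the replicates. All 4 libraries cite the same donor but separate biosamples, and the labels do not say whether these were separate cultures or animals. Spread and p-values therefore measure only differences between these libraries.

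Gene counts summed to between 24696730 and 37025016 fragments per library. Levels are given as TPM, the count divided by the gene's summed exon length and scaled to a total of 1000000 in each library. The 5 T-cell and Th17 markers each reached 10 TPM in all libraries, among them the T-cell coreceptor gene Cd4 at 237 ± 16.6 TPM and the cytokine gene Il17f at 694 ± 73.6 TPM (SD, n = 4). Of 13 markers of other cell types, 1 reached 1 TPM in every library (Trdc, a gamma delta T-cell receptor gene, at 5.17 ± 0.584 TPM), or 2 when replicate 2 was left out, and 5 had no fragment (Ms4a1, Lyz2, Ncr1, Hba-a1 and S100a8). Over all 21764 protein-coding genes, 44.8% reached 1 TPM in every library and 8004 had no fragment. The 5 markers without a fragment are near that share and are no result by themselves. The 13 markers together summed to between 6.47 and 8.46 TPM per library. Xist was at 186 and 161 TPM in replicates 1 and 2 and at 0.687 and 0.721 TPM in replicates 3 and 4, whereas the Y-linked Ddx3y was at 0.442 and 0.446 TPM in the former and 88.6 and 83.2 TPM in the latter. Replicates 1 and 2 thus carry the RNA of female cells and replicates 3 and 4 that of male cells, so the 4 libraries do not come from 1 animal, although the labels cite 1 donor. Within each pair, the labels do not tell separate animals from repeats of the same cells.

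Myc, N-Myc (Mycn) and L-Myc (Mycl) are basic helix-loop-helix leucine zipper proteins that bind the E-box sequence CACGTG as dimers with Max and activate genes for growth and metabolism. The Mxd proteins (Mxd1, Mxd3, Mxd4 and Mxi1), Mnt and Mga compete with Myc for Max and repress, the Mxd proteins and Mnt through the Sin3 and histone deacetylase corepressor and Mga within a Polycomb complex. Mlx is a Max-like hub that pairs with the glucose-responsive Mondo proteins Mlxip and Mlxipl and with some of the Mxd proteins. In T cells Myc is induced on activation and drives the metabolic programme of the dividing cell.

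Myc was by far the most abundant transcript of the network. It was at 962, 967, 992 and 968 TPM in replicates 1 to 4, a mean of 972 ± 13.4 TPM (SD, n = 4) from 102444 fragments. The libraries lay close together, with replicate 3 the highest. Myc (ENSMUSG00000022346.15, chr15:61985391-61990374 on the plus strand of mm10, 4 merged exon blocks) ranked 128 among 21764 protein-coding genes, above 99.4% of them and above 98.7% of the 9761 that reached 1 TPM in every library. In RNA from a bulk culture, a difference in the number of cells that express a gene and a difference in RNA per cell cannot be told apart. No 50-base word of Myc transcripts was found in annotated transcripts of other genes, so its count does not share reads of that length with a near-identical copy.

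Mycn and Mycl, the paralogs of Myc, were near 0. Mycn (chr12:12936096-12941914, minus strand) had 2 fragments in all 4 libraries together, 1 each in replicates 2 and 4. Mycl (chr4:122995652-123002485, plus strand) had 4 fragments in all, 1, 1, 2 and 0 in replicates 1 to 4. The mean levels, 0.0173 TPM for Mycn and 0.0269 TPM for Mycl, lay under the level of 3 fragments in the shallowest library, which is 0.124 TPM and 0.101 TPM. Their ranges overlapped, and no order between them could be read at this depth. Such floors cover counting error only.

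Max, the obligate partner of Myc, was the second most abundant member. It was at 142, 145, 142 and 141 TPM in replicates 1 to 4 (143 ± 1.60 TPM, SD, n = 4), above 93.7% of protein-coding genes. Max (ENSMUSG00000059436.13) lies at chr12:76937269-76962201 on the minus strand. Mlx followed at 127, 123, 122 and 122 TPM (123 ± 2.45 TPM, SD, n = 4), above 92.5% of protein-coding genes. Mlx (ENSMUSG00000017801.15, chr11:101087277-101092207, plus strand) shares 385 bases, 19.3% of its exons, with Psmc3ip on the opposite strand, which was at 39.9 ± 2.64 TPM. Fragments were counted by strand, which assigns those read from the other strand to Psmc3ip. The part of wrong-strand fragments of Psmc3ip in the Mlx count was not tested. Every library held more Max than Mlx, and the ranges did not overlap.

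**Figure D1:**
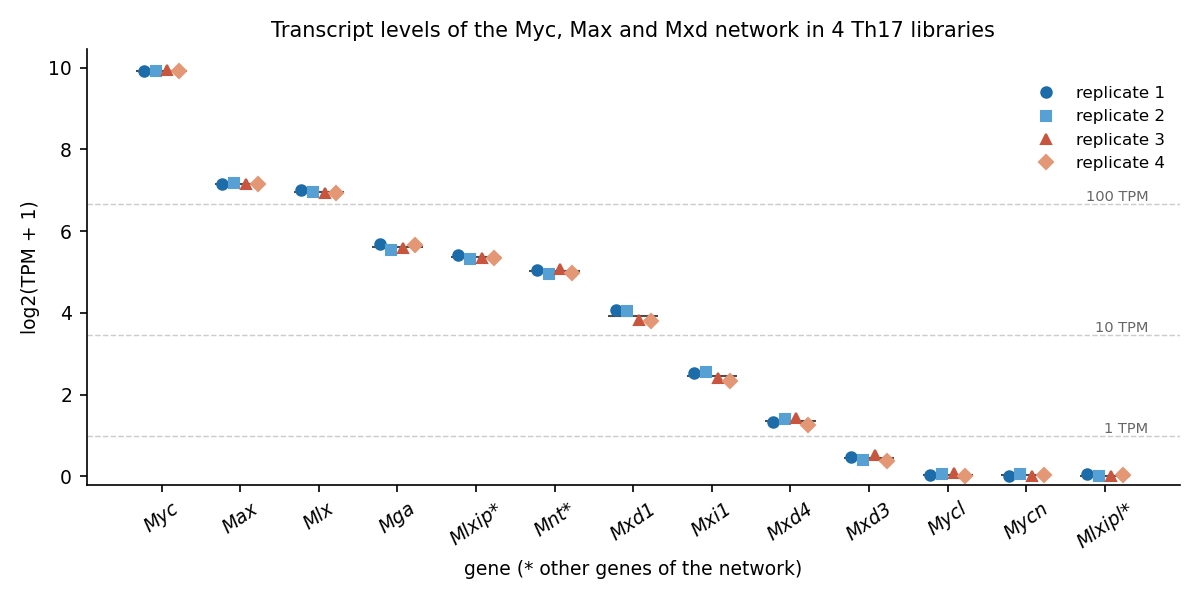
Level of each network gene in each of the 4 Th17 libraries, as log2(TPM + 1), in order of the mean, with each point 1 library, the horizontal bar the mean, dashed lines at 1, 10 and 100 TPM, and asterisks on Mnt, Mlxip and Mlxipl. Myc stands above the others at 962 to 992 TPM, Max and Mlx lie between 122 and 145 TPM, and Mycn, Mycl and Mlxipl sit at or near 0.

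Because Myc, Mxd and Mondo dimers all recognise CACGTG, the RefSeq promoter windows (build GRCm38.p6, 250 bases before to 50 bases after each start) were searched for it. The motif is its own reverse complement, so both strands give the same matches. Windows were matched for 9 of the 10 members, and for 2 of them (Mxd4 and Mlx) the motif lay in the 250 bases before a start. Mnt and Mlxipl also held it, 2 of the remaining 3 network genes. Max held it 3 bases before its RefSeq start. The last letters of the motif pass that start, so it counts only over the whole window. The Max exons used for counting begin further downstream, at 76962201, and the motif lies wholly upstream of them. Of all genes with a window, 6.86% (1854 of 27025) had the motif before a start, and among protein-coding genes at 1 TPM or more in every library 10.6% (830 of 7858). Over whole windows the shares were 8.09% and 12.6%, beside 3 of 9 members. The stretches below are printed because they carry the match in the members and in Mnt, 5′ to 3′ on the gene's strand, with CACGTG in capitals.
Max, chr12:76962244-76962276, minus strand: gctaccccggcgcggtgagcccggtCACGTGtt
Mlx, chr11:101087225-101087280, plus strand: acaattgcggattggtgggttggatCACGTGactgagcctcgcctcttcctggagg
Mxd4, chr5:34187899-34187954, minus strand: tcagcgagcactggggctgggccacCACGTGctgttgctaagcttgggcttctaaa
Mnt, chr11:74830776-74830831, plus strand: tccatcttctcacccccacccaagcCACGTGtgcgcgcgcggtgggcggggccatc
The first base of the motif lies 3 bases before the start in Max, 40 in Mlx, 219 in Mxd4 and 123 in Mnt. Levels of the genes with a match ran from 1.56 TPM for Mxd4 to 143 TPM for Max, and Mlxipl, at 3 fragments in all, also held one. A match is a run of letters and does not show that any factor was bound there.

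Among the 4 Mxd genes, whose products bring the Sin3 corepressor to E-boxes, Mxd1 was the most abundant. Mxd1 (ENSMUSG00000001156.9, chr6:86647042-86669161, minus strand) was at 15.8, 15.7, 13.1 and 12.8 TPM in replicates 1 to 4, a mean of 14.3 ± 1.59 TPM (SD, n = 4). Replicates 1 and 2 lay close together and above replicates 3 and 4. Those are also the libraries with high Xist, and the part of that difference in the Mxd1 values was not tested. Mxi1 (ENSMUSG00000025025.13, chr19:53310506-53375810, plus strand), also known as Mxd2, was at 4.76, 4.88, 4.34 and 4.08 TPM (4.51 ± 0.371 TPM, SD, n = 4). Its libraries fell in the same way, with replicates 1 and 2 above replicates 3 and 4.

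Mxd4 and Mxd3 were low. Mxd4 (ENSMUSG00000037235.13, chr5:34173883-34187720, minus strand) was at 1.53, 1.66, 1.68 and 1.37 TPM (1.56 ± 0.142 TPM, SD, n = 4). With the longest coding transcript as its length, in place of all exons together, Mxd4 was at 2.47 TPM. Mxd3 (ENSMUSG00000021485.13, chr13:55325168-55329758, minus strand), a member known from cycling progenitors, had 30 fragments in all and was at 0.397, 0.328, 0.447 and 0.308 TPM (0.370 ± 0.0640 TPM, SD, n = 4). All of these values lay above its floor of 0.197 TPM. Mxd3 shares 104 bases, 5.00% of its exons, with Prelid1 on the opposite strand, which was far more abundant at 604 ± 16.6 TPM. The part of wrong-strand fragments of Prelid1 in the Mxd3 count was not tested. The 4 Mxd genes together reached 20.8 ± 2.01 TPM, of which Mxd1 made up 68.9% ± 1.43 (SD, n = 4). The sum was 22.4 and 22.5 TPM in replicates 1 and 2 and 19.6 and 18.6 TPM in replicates 3 and 4.

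Mnt, the widely expressed repressor that pairs with Max, exceeded the 4 Mxd genes together in every library with all exons as length. It was at 32.2, 30.02, 32.6 and 30.6 TPM (31.4 ± 1.25 TPM, SD, n = 4) and made up 60.2% ± 2.61 of the TPM of the Mxd genes and Mnt. The share was 50.7% with the longest coding transcript as length, so the excess of Mnt rested on which exons were counted as length.

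Mga, a very large protein with a T-box domain besides its Max-binding domain, was at 50.2, 45.8, 47.5 and 49.4 TPM (48.2 ± 1.98 TPM, SD, n = 4). Mga (ENSMUSG00000033943.15, chr2:119897228-119969581, plus strand) has 24 merged exon blocks and 15340 exon bases, the most of the members. By fragments alone, without length, it ranked above Max, at 219 CPM (counts scaled by the library total) against 152. Per length, Mga lay below Max and Mlx and above Mnt in every library.

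Mlxip (MondoA) was at 41.7, 39.1, 39.9 and 39.5 TPM (40.03 ± 1.13 TPM, SD, n = 4). Mlxipl (ChREBP), best known from liver and fat, had 3 fragments in all, under its floor of 0.0739 TPM. Of the Mondo pair, Mlxip was therefore the transcript detected in these cells.

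In the order of levels Myc, Max, Mlx, Mga, Mxd1, Mxi1, Mxd4, Mxd3, Mycl and Mycn, 8 of 9 neighbouring pairs did not overlap in their ranges and had the same direction in 4 of 4 libraries. The exact two-sided sign-flip permutation test over 4 libraries cannot give a p under 0.13, and each of those 8 pairs reached that smallest value (adjusted p = 0.14 over 9 pairs, exact test). Mycl and Mycn were not distinguished (exact p = 0.75). The pairs were taken from the order of mean levels in these same libraries, which set the direction of each mean difference. Their p-values are therefore no separate support for that order. Of the 10 members, 7 reached 1 TPM in all libraries, 5 reached 10 TPM and 3 at 100 TPM. Over all 21764 protein-coding genes the shares at those levels were 44.8%, 33.9% and 8.72%. The median protein-coding gene at 1 TPM or more lay at 31.2 TPM, a level that Mnt was close to and that Myc, Max, Mlx and Mga exceeded.

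How the activator compared with its partner and its competitors was read from 8 contrasts of log2(TPM + 1) within each library, a scale that understates differences between low genes. Myc exceeded Max by 2.76 ± 0.03 on that scale (SD, n = 4), a ratio of TPM of 6.82. The ratio lay between 6.67 and 6.97 in the 4 libraries. It was 4.28 with the longest coding transcript as length, since the annotated exons of Max add up to 3598 bases whereas its longest coding transcript has 1942. Myc exceeded the summed Mxd genes and Mnt by 4.20 ± 0.07, a ratio of 18.6. Myc alone made up 90.6% ± 0.314 of the TPM of all partners of Max, which are the Myc and Mxd genes, Mnt and Mga. The partners other than Myc summed to 100.4 ± 3.01 TPM, less than Max itself in every library.

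Max exceeded the summed Mxd genes and Mnt, 52.1 ± 2.24 TPM, by 1.43 ± 0.06 on the log2 scale, or 2.06 with the longest coding transcript as length. The difference between the hubs Max and Mlx was the smallest of the 8 contrasts at 0.21 ± 0.03, a ratio of 1.16, and was 1.07 with that other length. The size of the step from Max to Mlx thus rested on which exons were counted as length, while its direction did not change. Mlx exceeded the summed Mlxip and Mlxipl by 1.60 ± 0.02, a ratio of 3.08, and Mga exceeded Mnt by 0.61 ± 0.06, a ratio of 1.54. Among the repressors, Mxd4 lay under Mxd1, a difference of -2.58 ± 0.15. Mxi1 lay above Mxd3 by 2.01 ± 0.11, or 3.30 with a pseudocount of 0.1 in place of 1. Mxi1 was 2.90 times Mxd4 in mean TPM, and their log2 difference of 1.11 ± 0.08 shrank to 0.42 with the longest coding transcript as length. All 8 contrasts had the same direction in 4 of 4 libraries, and each reached the smallest p of the exact two-sided sign-flip permutation test (0.13, adjusted p = 0.13 over 8 contrasts). Any difference with 1 direction in all 4 libraries gives that p, so it adds nothing to the direction. Myc against Max and Max against Mlx are also among the neighbouring pairs above, so they are not separate tests. RNA ratios do not give the ratios of the proteins, which were not measured.

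**Figure D2:**
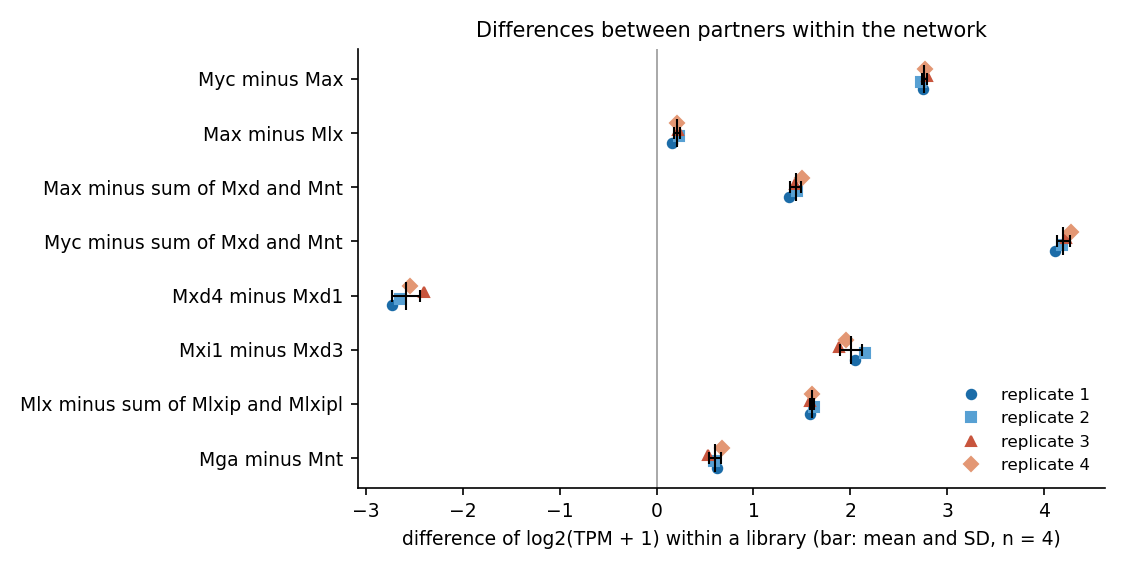
Difference of log2(TPM + 1) within each library for the 8 contrasts between network genes, each point 1 of 4 libraries, with a bar for the mean and SD. Points of a contrast lie on 1 side of 0 in every library, from 4.20 for Myc against the summed Mxd genes and Mnt to -2.58 for Mxd4 against Mxd1.

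Whether any member differed between the replicates more than genes of its abundance was tested with edgeR's quasi-likelihood fit with an intercept only, one-sided for greater spread. Of 11847 genes that passed the filter on low counts, 36 (0.304%) were called at an adjusted p under 0.05, or 15 without replicate 4. The fit had no term for sex, so the spread includes any difference between the female and the male libraries. The part of that difference in the calls and in the ratios below was not tested. Of the 10 members 7 were tested, and Mycn, Mycl and Mxd3 fell under the filter. None of those 7 was called by edgeR or by limma-trend, and 1 (Mxd1) had an unadjusted p under 0.05 by either tool. Over all tested genes 5.69% (674 of 11847) had an unadjusted edgeR p under 0.05, so 1 such member is no result about the network. The residual quasi-dispersion of Mxd1, a variance between libraries, was 5.20 times the trend at its abundance, a ratio above that of 98.7% of the tested genes (edgeR unadjusted p = 0.00632, adjusted p = 0.486). Over the alternatives its adjusted p ran from 0.431 to 0.975. For Myc the ratio was 0.253, and 14.0% of tested genes had a lower one. The ratio was 0.175 for Mlx, 0.365 for Max, 0.515 for Mxd4, 0.744 for Mxi1 and 1.54 for Mga. For Mnt and Mlxip it was 0.480 and 0.467. The median ratio over all tested genes was 0.804, so a ratio under 1 is common and does not set these genes apart.

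**Figure D3:**
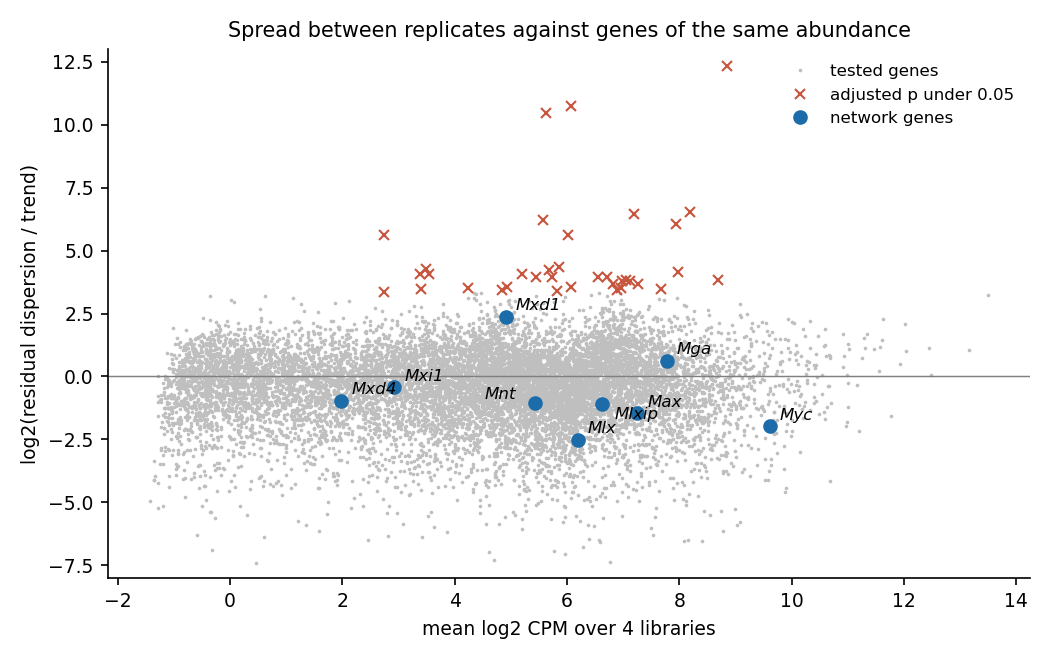
The log2 ratio of residual dispersion between the 4 replicates to the trend, against mean log2 CPM, for the genes tested with edgeR (grey), those called (red crosses) and the tested network genes (blue, named). Mxd1, at a ratio of 5.20, stands above the other network genes, and Myc, Max and Mlx lie under the line where the ratio is 1.

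The genes whose levels were most like those of Myc over the 4 libraries, by Euclidean distance of log2(TPM + 1) among protein-coding genes, were Srsf2, Eif3d and Psma2. Srsf2, a splicing factor, was at a distance of 0.0381 with a mean of 975 TPM. Eif3d, a subunit of a translation initiation factor, was at 0.0487, and Psma2, a proteasome subunit, was at 0.0548.

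The cofactors through which the members act were present nearly throughout. Each of the 20 genes listed as coactivators or other partners of Myc (Zbtb17 among the latter) reached 10 TPM in all libraries. Their median was 70.1 TPM. The DNA helicases Ruvbl2 and Ruvbl1 (338 ± 7.29 and 224 ± 5.16 TPM) and Hcfc1, a chromatin-bound partner (212 ± 7.78 TPM), were the highest, and Brd8, a subunit of the TIP60 acetyltransferase complex, was the lowest at 23.7 ± 0.849 TPM (SD, n = 4). All 15 genes of the Mxd corepressor list were also at 10 TPM or more, with a median of 49.6 TPM. They were led by the histone-binding Rbbp7 at 476 ± 15.5 TPM, the deacetylase Hdac2 at 162 ± 5.01 TPM and Rbbp4 at 146 ± 6.12 TPM, and Ing2 was the lowest at 10.9 ± 0.534 TPM. Of 21764 protein-coding genes, 9761 reached 1 TPM in every library and 7379 reached 10 TPM, so most detected genes also lay at 10 TPM or more. The median of the corepressor list stood above the 31.2 TPM of detected protein-coding genes, and Ing2 lay below it. The Mxd genes themselves summed to 20.8 TPM.

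Of the 14 genes of the Polycomb complex that contains Mga and Max, all were at 1 TPM or more and 13 at 10 TPM. Over all protein-coding genes those shares were 44.8% and 33.9%. The median of the 14 was 75.6 TPM. Tfdp1, the dimer partner of E2F factors, was at 306 ± 3.35 TPM and Wdr5, a scaffold of histone methyltransferases that also stands among the coactivators, at 195 ± 1.55 TPM. The exception under 10 TPM was Tfdp2, a paralog of Tfdp1, at 2.69 ± 0.189 TPM. Hdac1 and Hdac2 belong to this complex too and are counted both here and on the corepressor list.

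Myc protein is short-lived, and genes known to act on its turnover were all detected. Of 16, all were at 1 TPM or more and 15 at 10 TPM, beside 44.8% and 33.9% of protein-coding genes. Their median was 84.1 TPM. Set, an inhibitor of the phosphatase that destabilises Myc, was at 807 ± 10.3 TPM. Pim1, a kinase that stabilises it, was at 339 ± 9.06 TPM and Gsk3a, a kinase whose phosphorylation marks Myc for degradation, at 179 ± 1.85 TPM. The lowest was Skp2, a ubiquitin ligase subunit, at 7.22 ± 0.357 TPM. Of 7 genes acting on Myc transcription or Myc mRNA, 4 were at 10 TPM or more. Cnbp, which binds an element of the Myc promoter, was at 1424 ± 19.3 TPM, Hnrnpk at 618 ± 8.01 TPM and Fubp1, which binds a far upstream element of Myc, at 135 ± 6.90 TPM. The remaining 3 were the Igf2bp genes, which encode proteins that stabilise Myc mRNA. They were under 1 TPM, with Igf2bp2 the lowest at 0.112 ± 0.0462 TPM.

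Genes known as activated targets of Myc, listed with earlier results of these data known, were abundant as a group. Each of the 28 reached 1 TPM in all libraries, 27 reached 10 TPM and 25 at 100 TPM, and their median was 520 TPM. At 100 TPM were 8.72% of protein-coding genes, or 1898 of the 9761 that reached 1 TPM in every library. The nucleolar chaperone Npm1 was at 5287 ± 216 TPM, Ldha, which makes lactate, at 3198 ± 99.9 TPM and prothymosin (Ptma) at 2733 ± 133 TPM (SD, n = 4). Tert, the telomerase subunit, was the lowest at 5.98 ± 0.636 TPM. Many of these genes are abundant in any dividing cell, and with 1 group their dependence on Myc was not tested. Among the 20 with a promoter window, 5 (Ldha, Cdk4, Nme1, Eif4e and Hspd1) had CACGTG before a start, beside 10.6% of detected protein-coding genes. Ldha is shown because it was the most abundant of the 5, and Cdk4, which encodes a cell-cycle kinase, because its window held 4 matches. The latter was chosen after the windows were read.
Ldha, chr7:46845634-46845689, plus strand: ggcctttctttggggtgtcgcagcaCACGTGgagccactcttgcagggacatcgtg
Ldha, chr7:46845731-46845786, plus strand: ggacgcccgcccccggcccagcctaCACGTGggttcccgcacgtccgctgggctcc
Cdk4, chr10:127063338-127063467, plus strand: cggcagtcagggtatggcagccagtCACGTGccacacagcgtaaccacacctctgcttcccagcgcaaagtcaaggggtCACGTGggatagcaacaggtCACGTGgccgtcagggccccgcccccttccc
In Ldha the matches begin 145 and 48 bases before the start. In Cdk4, at 491 ± 16.6 TPM, those of the printed stretch begin 172, 118 and 98 bases before the start and the remaining match lies 11 bases before it.

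Genes known to be repressed by Myc ranged widely, in shares near those of all protein-coding genes. Of 9, 4 were at 1 TPM or more, 3 at 10 TPM and 1 at 100 TPM, beside 44.8%, 33.9% and 8.72% of protein-coding genes. Their median was 0.894 TPM, beside 0.275 TPM over all protein-coding genes. The highest was Cdkn1a, the cyclin-dependent kinase inhibitor p21, at 138 ± 5.87 TPM, about the level of Max. Ndrg2 was at 15.9 ± 1.09 TPM and Cdkn1b, the inhibitor p27, at 13.8 ± 0.353 TPM, and Cebpa, a myeloid and liver factor, was the lowest at 0.0370 ± 0.0321 TPM.

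Targets of the Mondo and Mlx dimers did not share 1 level. Of 6, 4 were at 10 TPM or more, among them the lipid synthesis gene Fasn at 289 ± 5.12 TPM, the zinc finger gene Klf10 at 53.8 ± 1.97 TPM and Txnip, an inhibitor of glucose uptake, at 27.4 ± 1.80 TPM. Pklr, the liver pyruvate kinase, had no fragment. Other factors that bind E-boxes could use the same motif. Of 13, 10 were at 1 TPM or more and 9 at 10 TPM, with a median of 22.7 TPM. Over all protein-coding genes 44.8% and 33.9% reached those levels. Srebf2, a regulator of cholesterol synthesis, was the highest at 205 ± 5.39 TPM. Bhlhe40, known as a regulator of cytokines in T cells, was at 153 ± 13.2 TPM and Tfap4, itself a target of Myc, at 85.1 ± 4.79 TPM. Tfec had no fragment. Myc, at 972 TPM, was several times more abundant than any of these 13 in every library.

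Between replicates, none of the genes on the cofactor, turnover, target and E-box factor lists was called by edgeR among the 4 libraries, and none by limma-trend. At an unadjusted edgeR p under 0.05 there were 2 among the activated targets, 1 among the coactivators, 1 on the turnover list and 1 among the other E-box factors. Over all tested genes 5.69% (674 of 11847) had such a p, so these counts are no result about the lists. Il17f, among the Th17 markers, was called (edgeR adjusted p = 0.00785) and was no longer called without replicate 3, without replicate 4 or with the prior fitted without robust estimation. Replicate 3 was its lowest library. Bhlhe40 was not called (edgeR adjusted p = 0.124) but was called without replicate 3 and with no filter on low counts.

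**Figure D4:**
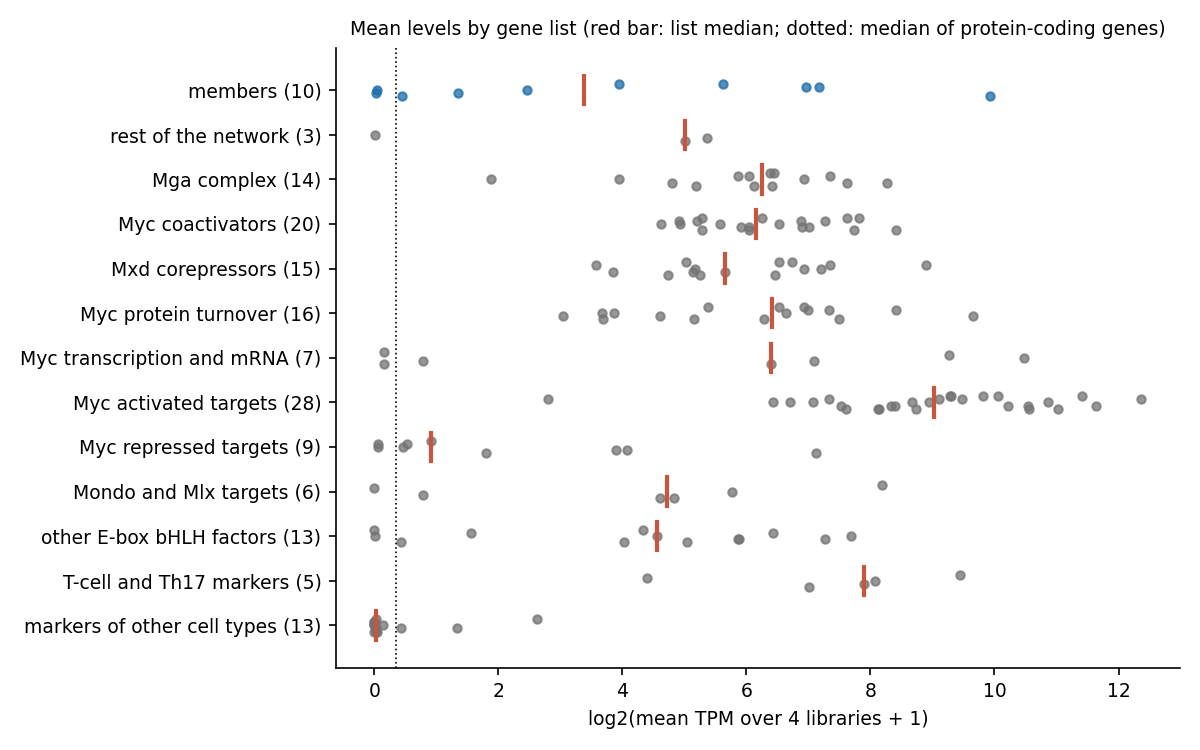
Mean level of each gene over the 4 libraries, as log2(mean TPM + 1), for the network (members in blue), each list of cofactors, targets and related factors, and the cell type markers, with a red bar at the list's median and a dotted line at the median of all protein-coding genes. Activated targets of Myc have a median of 520 TPM, and the repressed targets 0.894 TPM, with Cdkn1a alone among the latter above 100 TPM.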

How the data were processed

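The authors deposited raw fragment counts per gene, made per the file headers with featureCounts 1.4.6-p4 on paired alignments, over exons of GENCODE vM13, with strand option 2 (reverse) and both ends aligned. The build is mm10 per the labels. An aligner version is not stated in those sources. If multi-mapping fragments were left out, copies of a gene are undercounted, which could not be read from the headers. The headers' output names carry a 16 hr tag that the labels do not explain. The labels call the assay total RNA, while their library protocol is named for poly(A) RNA, and the 2 were not reconciled.

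Symbols came from GENCODE M21 (50376 of 50600 identifiers matched, version ignored), and all 10 members and all 155 list symbols matched. TPM was computed as count over the file's summed exon length. That length joins all isoforms, so exons not used in these cells lower a gene's TPM. Depth was 24696730 to 37025016 fragments. A count of 3 fragments was the floor.

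Contrasts and neighbouring pairs used exact two-sided sign-flip permutation tests with Benjamini-Hochberg adjustment. Variability used edgeR 4.0.16 in R 4.3.3 (TMM, filterByExpr, robust prior, F upper tail, prior degrees of freedom 24.8). The code was also run on counts simulated from its own fitted trend, with no sex difference and extra spread only in well-counted genes. That run was a check of the code and does not bear on the calls reported here. Alternatives used limma 3.58.1 and DESeq2 1.42.0 size factors. Other work used Python 3.11.15 (numpy 2.4.6, pandas 2.3.3, scipy 1.17.1, matplotlib 3.10.9).

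Members and lists were chosen with earlier results of these data known. Genes named were all network genes, the 3 highest and the lowest of each list, list genes called variable, the 3 nearest to Myc and genes overlapping a member. Promoter sequences are from RefSeq (GRCm38.p6). The value of 1 named marker is not reported here.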

Additional observations from a re-analysis of the deposited data

Results flagged for a closer look

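In 6 of 56 values tested over the 4 libraries, 1 library stood apart from the other 3 by Dixon's criterion. Chance flags about 1 in 20. Myc made up 90.2% of the TPM of the partners of Max in replicate 1 against 90.8% to 90.9% in the other 3. The summed TPM of the partners was 1091 in replicate 3 against 1065 to 1067, and Myc was highest in that library. Hdac2 was at 169 TPM in replicate 3 against 159.1 to 159.8. Ruvbl1 was at 217 TPM in replicate 2 against 226 to 227. Pim1 was at 326 TPM in replicate 2 against 343 to 346. Ptma was at 2933 TPM in replicate 4 against 2661 to 2669.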

How the results depend on the processing

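The count of 36 genes variable between replicates became 94 with no filter beyond 1 count and 17 with a prior fitted without robust estimation, and 15 to 37 when a replicate was left out (15 without replicate 4). The cause was not tested, and the edgeR fit had no term for the sex of the libraries. The count was 39 with DESeq2 size factors and 40 with limma-trend. Markers of other cell types at 1 TPM or more numbered 1, but 2 at a threshold of 0.5 TPM, and 1 to 2 when a replicate was left out. Among the log2 differences recomputed, only that between Mycl and Mycn reversed, with values from -0.0059 (without replicate 3) to 0.0313 (without replicate 4) as a replicate was left out, both genes lying under their floors. Myc stayed first in the order under every setting. All 10 members kept their place with the longest coding transcript as length, 7 did by fragments without length, where Mga passed Max and Mlx, and 8 did without replicate 3, where Mycl and Mycn changed places. The level of Myc was 815 TPM with that length and 1166 TPM without mitochondrial and ribosomal protein genes. No paired analysis was possible because there was 1 group. With 4 libraries no sign-flip p can pass 0.05, and depth does not allow levels of Mycn, Mycl or Mlxipl to be ordered.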

Other observations

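Within 1 Mb of Myc on chromosome 15, 11 other genes were counted, none of them protein-coding, and 7 had no fragment. The share without a fragment was not taken over all counted genes, so that count is no result about the region. Pvt1, the long noncoding RNA that lies 47612 bases downstream on the same strand, was at 8.03, 6.65, 7.08 and 6.59 TPM in replicates 1 to 4 (7.09 ± 0.667 TPM, SD, n = 4), with replicate 1 the highest. Tsg101-ps, a processed pseudogene, was the other gene at 1 TPM or more in every library, at 1.94 ± 0.282 TPM. Both genes were chosen after their values were seen.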
